A study of Homo sapiens with 4 samples.

Results

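The distal interval of 11p15 studied here ran from 0.25 to 4.0 Mb on chromosome 11 of the hs1 human assembly, and its members were all SAF-A peaks whose summit fell inside it. There were 2033 such peaks over 4 peak lists, 554 and 445 from asynchronous replicates 3 and 4, then 404 and 630 from mitotic replicates 3 and 4, of 371322 peaks on the nuclear chromosomes. Peaks of the 4 lists that shared at least 1 bp were merged, which gave 1068 regions in the interval of 242505 in all. The interval was selected on the peak density seen in these same lists, so its density is a description and is not tested. The reference was the next stretch of the chromosome, from 4 to 10 Mb.

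The cells were RPE1, an immortalised line of human retinal pigment epithelium, labelled wild type in every sample. The assay was CUT&Tag with an anti-SAFA antibody, which tethers a transposase near SAF-A so that DNA there is cut, tagged and sequenced. One group was asynchronous (2 libraries) and the other mitotic (2 synchronised libraries), with no other treatment named in the labels. Below, a pair of values before "against" belongs to asynchronous replicates 3 and 4 and the pair after it to mitotic replicates 3 and 4. How mitosis was synchronised, and whether the replicates were separate cultures, is not given in these sources, so a p-value here reflects the spread among the libraries alone, which may be technical. Exact two-sided permutation tests on 2 libraries per group cannot give a p below 0.333.

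SAF-A, the product of HNRNPU, is an abundant nuclear protein that binds chromatin-associated RNA as well as DNA, and it is known to leave most of the chromosome surface during mitosis. Distal 11p15 is known for its imprinted genes, which are read from only 1 parental copy. In the domain with H19 and IGF2, the maternal copy makes the H19 long noncoding RNA and the paternal copy makes the growth factor IGF2. In the neighbouring domain, the paternal noncoding RNA KCNQ1OT1 keeps nearby genes such as the cell cycle inhibitor CDKN1C silent on its own chromosome. Peak lists do not separate the parental copies.

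No annotation of the hs1 assembly was used here, so no peak was assigned to a gene, and the position of the imprinted domains at about 2 to 3 Mb is the working description of the interval, not a result. The gene order below comes from a RefSeq table of another assembly and serves only for orientation. From the telomere inwards it lists the interferon-induced IFITM genes, the signalling gene HRAS, the mucin cluster from MUC6 to MUC5B, the lysosomal protease gene CTSD, H19, IGF2 and INS. KCNQ1 with KCNQ1OT1, CDKN1C, the nucleoporin gene NUP98 and the calcium sensor gene STIM1 follow. Between IFITM1 and STIM1 the table has 87 protein-coding genes, of which 0 are olfactory receptor genes. Between TRIM21, which comes after STIM1, and the beta-globin gene HBB, 25 of 29 are olfactory receptor genes.

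SAF-A summits ran through the whole interval. Each of its 37 whole bins of 100 kb held a summit in all 4 lists, with 2 to 36 summits per bin and list, and the longest stretch without a summit in any list was 28.5 kb. In the reference, 33 of 60 bins held a summit in every list and 14 held none in any, and its longest empty stretch was 466 kb. The interval had 3.34 and 3.81 against 3.26 and 3.28 times the summits per Mb of the reference, a mean of 3.43 ± 0.257 (SD, n = 4).

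The dense stretch did not end at 4 Mb. From 4 to 4.8 Mb the reference held 107 and 80 summits against 77 and 116, which per Mb was 0.876 ± 0.0285 (SD, n = 4) of the interval's density. The next 4 bins held no summit in any list. Against the reference from 4.8 Mb on, the interval was 4.96 ± 0.553 times as dense (SD, n = 4). A reference said to open with an olfactory receptor and globin stretch therefore opened with 0.8 Mb of peaks almost as dense as the interval's own. At the upper border the last summits inside, at 3997112 to 3997119 in the 4 lists, had 24, 28, 28 and 35 fragments, and the first outside had 23, 27, 16 and 27. At the lower border the first summits inside had 14, 16, 20 and 19 fragments, and the last outside had 44, 41, 24 and 31.

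**Figure D1:**
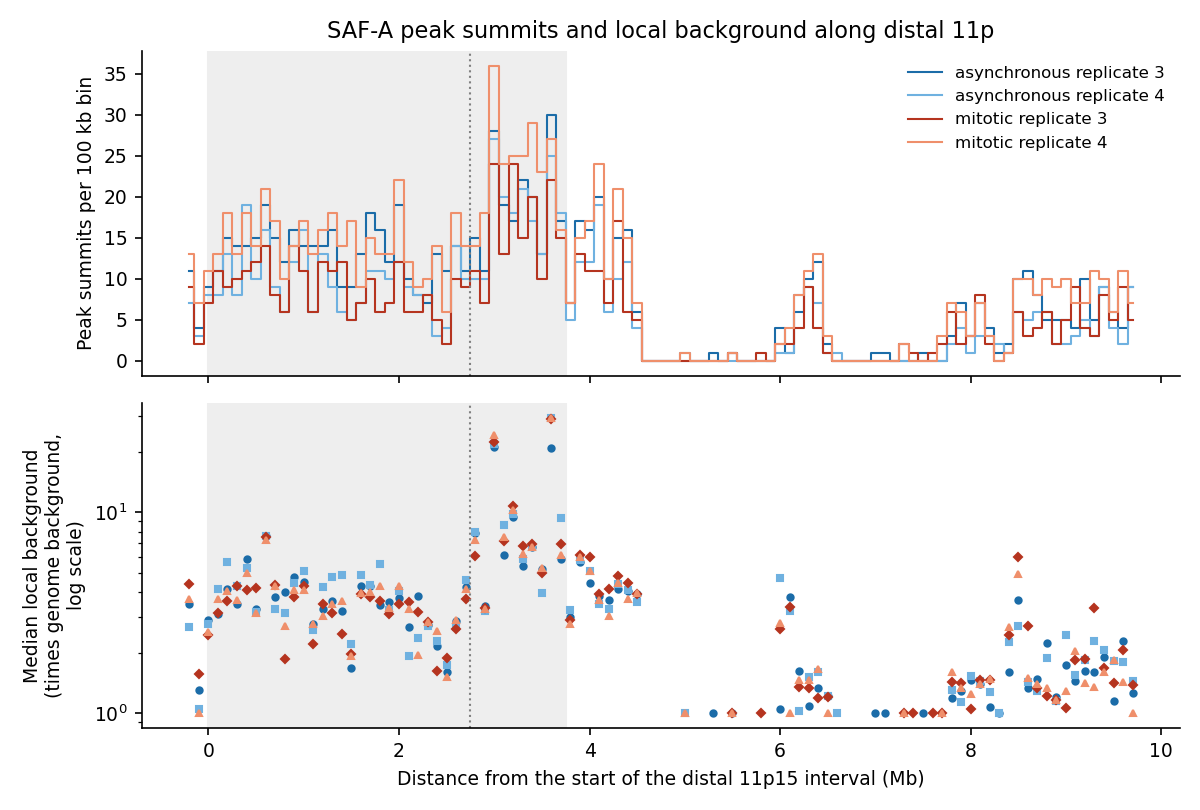
Upper panel, peak summits per 100 kb bin for each of the 4 libraries against the distance from the start of the interval in Mb. Lower panel, the median local background of the peaks in each bin in multiples of the library's genome background, on a log scale. The interval is shaded and the dotted line marks the start of its last 1 Mb, where both measures reach their highest bins, and an empty stretch starts 0.8 Mb past its end.

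The interval had 3 sections that kept the same order in every library by summits per Mb, by summit height and by local background. The last 1 Mb, from 3 to 4 Mb, held 192 and 179 summits against 161 and 237, 38.1% ± 2.56 of the interval's summits (SD, n = 4). The section from 2 to 3 Mb, described as holding the imprinted domains, held 121 and 89 against 71 and 131 summits. It was the sparsest of the 3, at 0.839 ± 0.0778 (SD, n = 4) of the density from 0.25 to 2 Mb, where there were 241 and 177 against 172 and 262 summits. The section from 3 to 4 Mb was 1.92 ± 0.290 times as dense as that from 2 to 3 Mb (SD, n = 4), and 1.70 ± 0.180 times as dense as the rest of the interval. With only peaks of -log10 q of at least 5 the latter ratio was 3.16.

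Summit height followed the same order. The median summit pileup, the number of overlapping fragments at the highest point of a peak, was 34 and 32 against 31 and 42 from 3 to 4 Mb. From 2 to 3 Mb it was 15 and 14 against 14 and 19 fragments, and from 0.25 to 2 Mb it was 20 and 19 against 17 and 23. From 4 to 4.8 Mb, past the interval, it was 21 and 18.5 against 20 and 24, near the interval's own 22 and 21 against 20 and 26. Over all nuclear peaks it was 12 and 12 against 11 and 14. Peaks from 3 to 4 Mb were thus 2.24 ± 0.0377 times as high as those from 2 to 3 Mb (SD, n = 4). The height that the peak caller requires rises with the local background: the lowest pileup called from 3 to 4 Mb was 10, 11, 8 and 12 fragments, against 6, 6, 6 and 8 from 2 to 3 Mb.

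The local background, the fragment density that the authors' peak caller expected around each peak, was also highest in the section from 3 to 4 Mb. Its median there was 8.33 and 9.14 times the library's genome background against 9.01 and 8.12. From 2 to 3 Mb it was 2.93 and 2.94 against 2.93 and 3.24 times, and from 0.25 to 2 Mb 3.89 and 4.44 against 3.71 and 3.71 times. Over all nuclear peaks it was 1.63 and 1.78 against 1.64 and 1.65 times. The median of the whole interval stood at 2.68 to 2.81 times that of all nuclear peaks in the 4 libraries, and that of 3 to 4 Mb at 5.16 ± 0.232 times. The raised level did not end with the interval. From 4 to 4.8 Mb the median was 4.17 and 4.26 times the genome background against 4.82 and 4.20. In the interval it was 4.37 and 5.01 against 4.53 and 4.51 times. The local background is known only where a peak was called, and the sources used here do not say whether it included the peak's own fragments.

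Among 1284 windows of 1 Mb with at least 20 peaks in every list, 3 to 4 Mb ranked 1 by local background, 1 by median summit height over the genome background and 1 from the bottom by fold enrichment, each as a mean over libraries. Without mitotic replicate 3 it ranked 2 by local background, and without any other library it ranked 1. By summit number it ranked 2. The window from 2 to 3 Mb ranked 82 by local background, 161 by height and 75 by summit number. The windows from 0 to 1, 1 to 2 and 4 to 5 Mb, the last outside the interval, ranked 17, 29 and 13 by local background. By fold enrichment from the bottom they ranked 24, 21 and 8. The ranks were computed after the density of these windows was known, and the measures share their fragments.

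From 3 to 4 Mb, where summits and background were high, median fold enrichment was low. This did not hold for every stretch or region of high background, as given below. On a higher expected count a peak passes the peak caller's limit at a lower fold, and the background was itself solved from the fold. The part of this in the low folds was not tested. The deposited fold, the ratio of summit pileup to local background, had a median of 2.82 and 2.89 against 2.89 and 2.67 from 3 to 4 Mb. From 2 to 3 Mb it was 3.20 and 3.35 against 3.62 and 3.11, and over all nuclear peaks 3.77 and 3.90 against 3.95 and 3.63. From 4 to 4.8 Mb, past the interval, it was 3.07 and 3.26 against 3.32 and 2.95. In each library the section with the highest summits had the lowest fold of the 3.

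**Figure D2:**
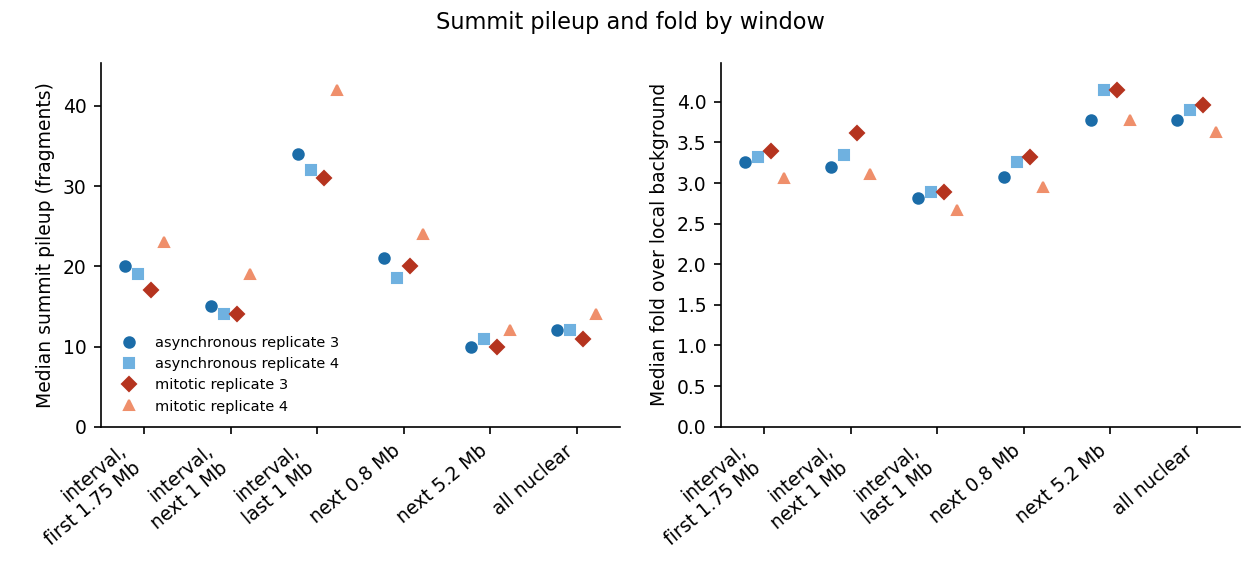
Median summit pileup in fragments (left) and median deposited fold over the local background (right) of the peaks in 3 consecutive windows of the interval, the next 0.8 Mb, the next 5.2 Mb and all nuclear chromosomes, with 1 point per library. The last 1 Mb of the interval has the highest pileups, at 31 to 42 fragments, and the lowest folds, at 2.67 to 2.89.

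The highest background lay in a few short stretches. In steps of 10 kb, the median local background reached 15 times the genome background in 2 runs of 50 and 60 kb and in 4 single steps, a limit chosen after the values were seen. The run from 3210001 to 3260000 held 17 and 17 peaks against 14 and 20. Their median local background was 24.2 and 27.0 times against 25.9 and 29.7 times the genome background, 25.6 ± 1.94 (asynchronous) and 27.8 ± 2.70 (mitotic; SD, n = 2 each; exact permutation p = 0.667). The states overlapped there.

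The run from 3860001 to 3920000 held 17 and 18 peaks against 16 and 18. Its median local background was 35.0 and 35.0 times against 33.3 and 36.2 times, with both asynchronous libraries inside the range of the mitotic ones (exact permutation p = 1). Median folds in the 2 runs were 2.11 ± 0.137 and 2.34 ± 0.0662 (SD, n = 4). In the 4 single steps, in order of position, they were 8.70 ± 0.440, 2.69 ± 0.810, 7.27 ± 1.49 and 2.94 ± 0.346 (SD, n = 4). The single steps began at 2070001, 3280001, 3460001 and 3680001, the first being the only one outside 3 to 4 Mb. Of the nuclear peaks with a local background of at least 15 times the genome background, 23.4% and 29.7% against 34.8% and 29.8% lay between 3 and 4 Mb of chromosome 11, 175 of 606 peaks in all. The mean share of 29.4% depends on that limit, and was 15.2% at 10 times and 46.0% at 20 times the genome background.

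**Figure D3:**
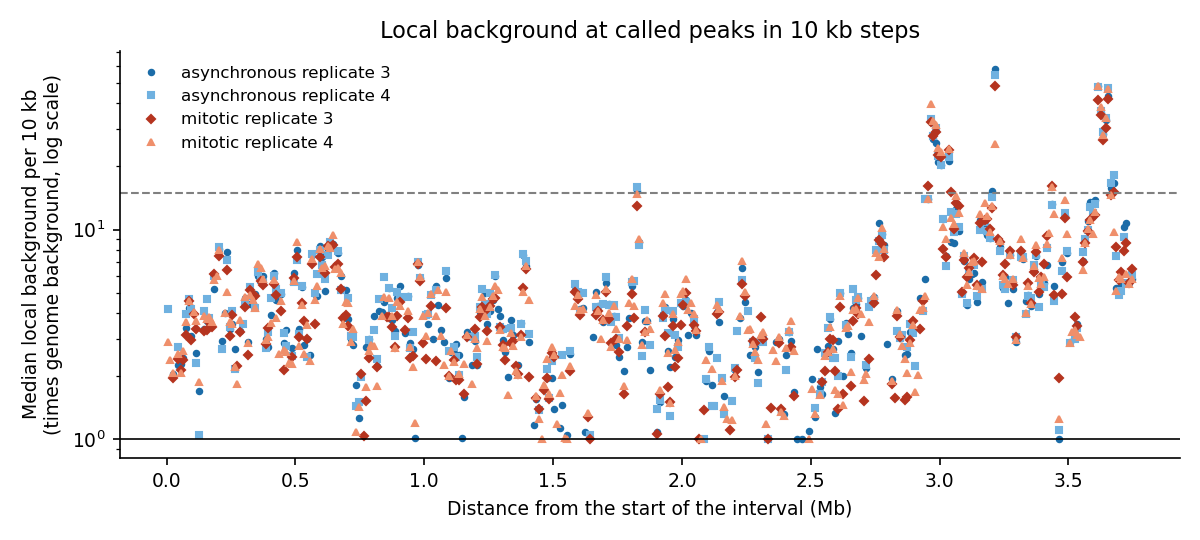
Median local background at called peaks in steps of 10 kb along the interval, in multiples of the library's genome background (log scale), with 1 symbol per library. The solid line marks the genome background and the dashed line 15 times that level, with the medians of the 2 long runs at 24.2 to 36.2 times in the 4 libraries.

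Peaks from 3 to 4 Mb were also the most often found again. Of the 327 merged regions there, 79 (24.2%) were called in all 4 libraries and 135 (41.3%) in 1. From 2 to 3 Mb, 17 of 271 regions (6.27%) were called in all 4 and 188 (69.4%) in 1, and from 0.25 to 2 Mb 59 of 470 (12.6%) and 271 (57.7%). Over all nuclear regions the shares were 8.38% and 71.8%. The interval thus held 155 shared regions, as those called in all 4 libraries are called here. By 100 kb bin they were most numerous from 3.2 to 3.3 Mb (15 regions) and from 3.8 to 3.9 Mb (14 regions), and the bins from 2.3, 2.6 and 2.7 Mb had 0. An overlap of 1 bp was enough to merge peaks, and with a reciprocal overlap of 50% the interval kept 64 shared regions. Peaks covered a mean of 9.49% of 3 to 4 Mb and 3.67% of 2 to 3 Mb. The part of this coverage in the recurrence was not tested.

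Bins followed the same pattern. The bin with the most summits, from 3.2 to 3.3 Mb, had 28 and 27 against 24 and 36. It was followed by 3.8 to 3.9 Mb with 30 and 25 against 22 and 27. The bins from 3.6, 3.4 and 3.5 Mb came next, with 15 to 29 summits per list. All 5 lay in the last 1 Mb. Of the 5 bins with the fewest, 4 lay between 2.4 and 2.8 Mb and 1 from 1.0 to 1.1 Mb. The emptiest, from 2.7 to 2.8 Mb, had 11 and 4 against 2 and 6 summits. As a description over the 37 bins, summit share and median local background had a Spearman rho of 0.822. Summit numbers in pairs of libraries had a rho of 0.696 to 0.783. The bins share libraries, and the peaks behind both measures are the same.

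The median shared region of the interval was high by summit height and low by fold over its surroundings, with the limit on fold given above. With heights divided by each library's median over all 20334 shared nuclear regions, the interval's median was 1.72 and 1.71 against 1.60 and 1.58. From 3 to 4 Mb it was 2.32 and 2.29 against 2.50 and 2.30, and from 2 to 3 Mb 1.00 and 1.05 against 1.10 and 1.03, at the level of all regions. By mean height, 54 of the 155 (34.8%) lay in the highest 10% of shared nuclear regions, 45 of them between 3 and 4 Mb. By mean fold, 6 of the 155 (3.87%) did. The median shared region of the interval stood at the 81.7 percentile by height and at the 10.2 percentile by fold, and between 3 and 4 Mb at the 92.2 and 3.92 percentiles. The interval's shared regions had a median width of 819 bp against 757 bp over all shared regions, and 38.1% were wider than 1 kb, against 23.3% of all. Summit positions in the 4 lists spanned a median of 157 bp in the interval and 141 bp over all shared regions.

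The highest region of the interval was at 3467682 to 3469008. Its summit had 1535 and 1102 fragments against 881 and 1530, at the same base in all 4 lists. That was 56.9 ± 6.31 times the median of shared regions for the asynchronous group and 45.2 ± 1.64 times for the mitotic group (SD, n = 2 each), and the region ranked 6 of the 20334. Both asynchronous libraries were above both mitotic ones, but the difference of -0.33 log2 units (SE 0.12) did not pass limma with Benjamini-Hochberg adjustment (adjusted p = 0.307). The second, at 3862462 to 3863525, had 1242 and 989 against 799 and 1486 fragments, ranked 8, and also had its summit at 1 base in every list. Its height was 48.4 ± 1.83 and 42.5 ± 3.59 times the median (SD, n = 2 each; limma adjusted p = 0.688). These 2 regions were high by fold as well, at the 97.4 and 99.7 percentiles, with local backgrounds of 85.1 and 46.4 times the genome background.

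The third region, at 3905552 to 3907182, was well below these, with 399 and 320 against 329 and 574 fragments. The fourth, at 3873084 to 3873671, had 292 and 277 against 238 and 405, and the sixth, at 3873864 to 3874979, had 234 and 208 against 185 and 312. Regions 2, 3, 4 and 6 all lay in the run of high background from 3860001. The fifth, at 3214592 to 3215319, had 232 and 211 against 207 and 368 fragments and lay in the other run, as did the twelfth, at 3216585 to 3217243, with 131 and 112 against 88 and 216. The twelfth stood at only the 0.384 percentile by fold, with a local background of 35.9 times the genome background.

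The other 5 of the 12 had 116 to 281 fragments at their summits. They were at 3289250, 2074648, 3424235, 3462153 and 3919834. The region at 2074648 to 2075332 was the 1 member of the 12 outside 3 to 4 Mb, with 195 and 177 fragments against 130 and 238. It was high by fold too, at the 91.5 percentile, and fell in the section described as holding the imprinted domains. Its height of 8.11 ± 0.444 (asynchronous) and 6.86 ± 0.504 (mitotic) times the median (SD, n = 2 each) did not pass the test of the cell states (limma adjusted p = 0.678). No gene was placed at it.

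**Figure D4:**
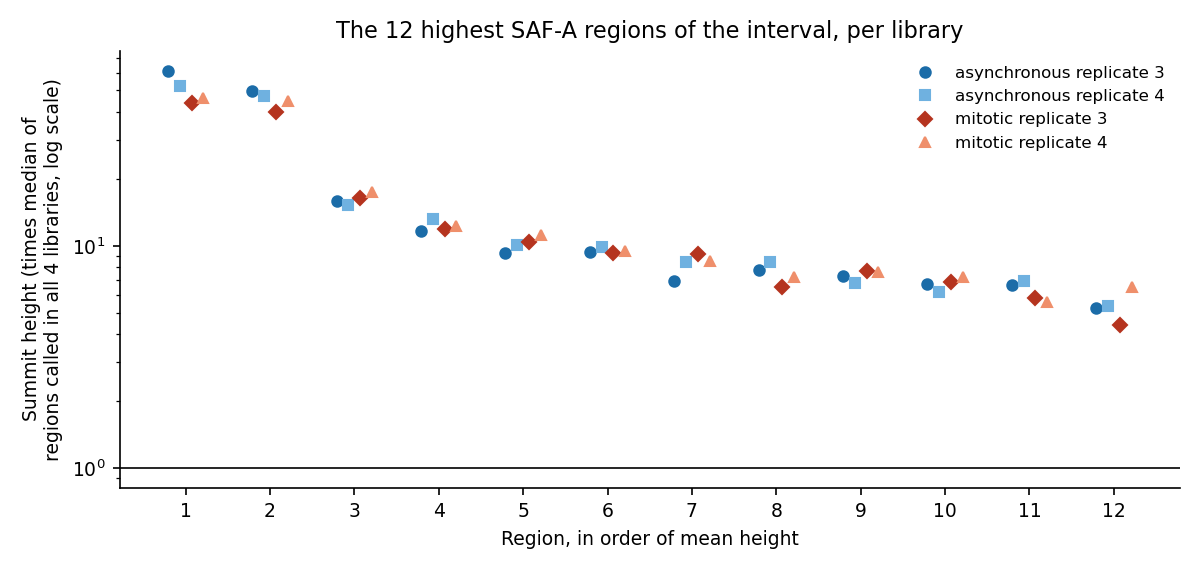
Summit height of the 12 highest regions of the interval in each of the 4 libraries, in multiples of the library's median over regions called in all 4 libraries (log scale, solid line at 1). Region 1 stands at 44.1 to 61.4 times the median, and region 12 at no more than 6.55 times.

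Shares, bin coverage and scaled heights are relative to each library's own peaks, so a change over the whole genome would not show in them. The interval's share of all peaks overlapped between mitotic and asynchronous libraries. It held 0.548% and 0.582% against 0.512% and 0.549% of the nuclear summits. The means were 0.565% ± 0.0242 and 0.530% ± 0.0259 (SD, n = 2 each), and the groups overlapped (exact permutation p = 0.667). For 3 to 4 Mb the shares were 0.190% and 0.234% against 0.204% and 0.206%, again overlapping (exact permutation p = 1). For 2 to 3 Mb they were 0.120% and 0.116% against 0.0900% and 0.114%. There the groups did not overlap (exact permutation p = 0.333), with mitotic replicate 4 close to the asynchronous values and mitotic replicate 3, with 71 summits, below them.

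The section from 0.25 to 2 Mb also had groups that were apart in some of the measures tested, each at the smallest p the design allows (exact permutation p = 0.333). Its share of summits was 0.235% ± 0.00483 for asynchronous and 0.223% ± 0.00718 for mitotic libraries (SD, n = 2 each). Its median local background was 4.17 ± 0.384 and 3.71 ± 0.00313 times the genome background, and its median summit height 15.4 ± 1.26 and 13.7 ± 1.15 times. The other measures tested there, among them summit number, fold and width, overlapped between the states. Over all nuclear peaks the median height was 9.50 ± 1.12 and 8.60 ± 1.09 times (SD, n = 2 each), with overlap. Over the whole interval the local background overlapped between the states, with asynchronous libraries at 4.69 ± 0.454 and mitotic ones at 4.52 ± 0.0171 times the genome background (SD, n = 2 each; exact permutation p = 1). Peaks from 3 to 4 Mb were 382 and 366 against 410 and 441 bp wide (median), without overlap of the groups (exact permutation p = 0.333). Over all nuclear peaks the widths were 299 and 286 against 312 and 328 bp, and the narrowest peak of the lists was 174 and 169 against 183 and 182 bp. The part of those limits in the width difference was not tested.

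No 100 kb bin of the interval passed the test between the cell states. By limma over 19520 bins of the genome, on log2 coverage (covered bases per Mb covered in that library, with 10 added), 0 of the 37 bins passed the Benjamini-Hochberg threshold of 0.05 and 2 had an unadjusted p under 0.05. Over all bins 0% passed and 5.04% were under 0.05 unadjusted. The smallest adjusted p was 0.886 in the interval. The median difference was -0.12 log2 units over the 37 bins, with 14 above 0 and 23 below, and 0.018 over all bins. The groups did not overlap in 10 of the 37 bins, against 34% of all bins.

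Of the bins higher in asynchronous cells, that from 1.8 to 1.9 Mb had the smallest p. It had 134 and 121 covered bp per covered Mb against 64.4 and 63.6 (-0.89 log2 units, SE 0.26), with 13 and 7 against 7 and 9 summits. The bin from 3.8 to 3.9 Mb followed, with 447 and 538 against 355 and 389 bp (-0.39, SE 0.17). The emptiest bin, from 2.7 to 2.8 Mb, had 117 and 37.4 against 13.9 and 38.6 bp (-1.19, SE 0.55), where asynchronous replicate 3 was high, mitotic replicate 3 was low and the other libraries were close together. Without asynchronous replicate 3 the difference was -0.48, and without mitotic replicate 3 it was -0.68. In the other direction, the bin from 0.3 to 0.4 Mb had 121 and 75.8 against 153 and 140 bp (0.57, SE 0.27). The bins from 3.1 and 3.6 Mb were at 0.40 (SE 0.23) and 0.33 (SE 0.20). None of the 6 passed.

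No shared region of the interval passed the test of summit height between the states. Heights were scaled within each library, so only changes relative to other regions could be seen. In the limma fit over 20334 regions, 0 of the 155 in the interval passed and 10 (6.45%) had an unadjusted p under 0.05, against 0.059% and 8.9% of all regions. Of all regions, 0.0492% passed as higher in mitotic and 0.00984% as higher in asynchronous cells. Differences lay within 0.5 log2 units in 147 of the 155 (94.8%), against 89.4% of all. Groups did not overlap in 60 of the 155, against 37.3% of all regions. The median difference was 0.0069 log2 units, with 81 regions above 0 and 74 below, and -0.018 over all regions.

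The sections leaned to opposite sides by small amounts. From 3 to 4 Mb, 51 regions were above 0 and 28 below, with a median of 0.086 log2 units. From 0.25 to 3 Mb, 30 were above and 46 below, with a median of -0.087. The regions share their 4 libraries, and the difference between the sections was not tested. The interval's median height, taken per library, was 1.72 ± 0.00404 (asynchronous) and 1.59 ± 0.0171 (mitotic; SD, n = 2 each), without overlap of the groups (exact permutation p = 0.333). With only peaks of -log10 q of at least 5 that difference, -0.129, became 0.00215.

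The region with the smallest p in the interval, at 3533342 to 3534615, had 26 and 29 fragments against 37 and 65. It was 0.67 log2 units higher in mitotic cells after scaling (SE 0.24, limma adjusted p = 0.289). The region at 2990666 to 2991562 had 20 and 19 against 24 and 52 fragments (0.69, SE 0.27, limma adjusted p = 0.377), with mean scaled heights of 0.852 ± 0.0741 (asynchronous) and 1.39 ± 0.266 (mitotic; SD, n = 2 each) times the median, both mitotic libraries being above both asynchronous ones. The region at 3689870 to 3690902 had 102 and 94 against 112 and 172 fragments (0.34, SE 0.17). Lower in mitotic cells, beside the highest region of the interval, were those at 1330932 to 1331608, with 49 and 50 against 32 and 45 fragments (-0.55, SE 0.22), and at 1483255 to 1483859, with 33 and 31 against 14 and 37 (-0.66, SE 0.27). None of these passed.

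**Figure D5:**
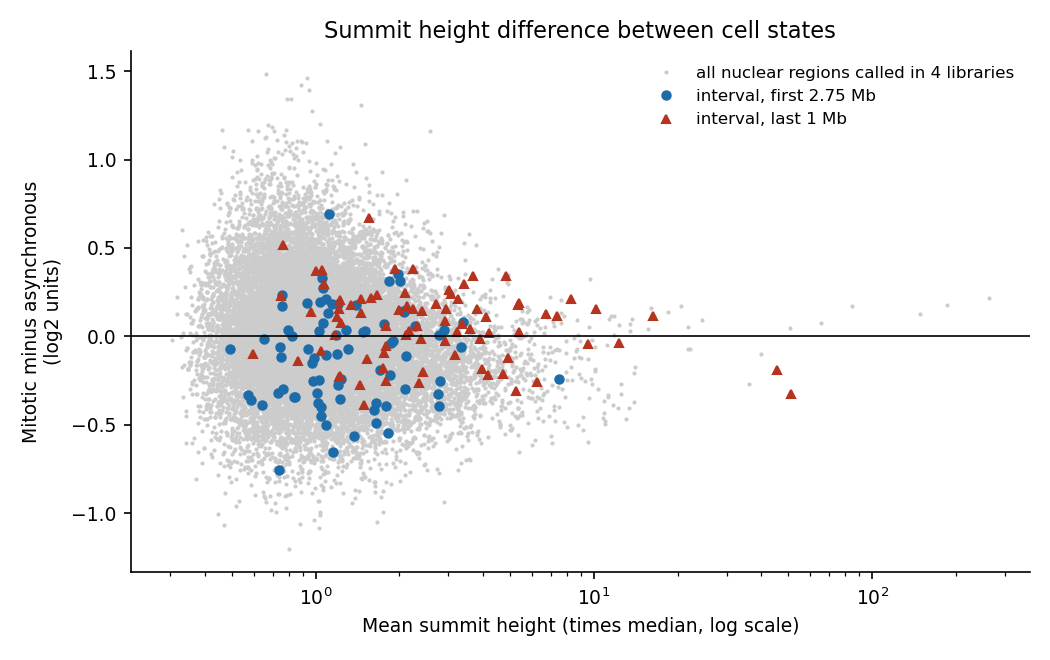
Mitotic minus asynchronous summit height in log2 units against the mean height in multiples of the shared-region median (log scale), for each region called in all 4 libraries. Grey points are all 20334 nuclear regions, circles the regions of the interval before its last 1 Mb and triangles those in that last 1 Mb, which lie within the grey cloud apart from the 2 highest regions, where few others are found.

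Regions called in both libraries of 1 state and in neither of the other numbered 26 for asynchronous and 39 for mitotic cells, 2.43% and 3.65% of the interval's 1068 regions, against 1.66% and 2.8% of all regions. Such regions are by definition called in exactly 2 lists. Regions called in 2 lists, of whatever state, were also more frequent in the interval, at 193 (18.1%) against 13.5% of all regions. The section from 0.25 to 2 Mb held 18 and 19 of them, 3.83% and 4.04% of its 470 regions. From 2 to 3 Mb there were 4 and 8, 1.48% and 2.95% of 271 regions. From 3 to 4 Mb there were 4 and 12, 1.22% and 3.67% of 327 regions. The median summit had 18 and 16.5 fragments in asynchronous-only and 17 and 21 in mitotic-only regions, below the interval's own medians of 22 and 21 against 20 and 26 but above those of all nuclear peaks, 12 and 12 against 11 and 14. The lower of a region's p-value percentiles in its 2 lists had a median of 36.4 for asynchronous and 39.0 for mitotic cells. By p-value within a list, the highest percentile that any reached in both of its lists was 82.0 for those of mitotic cells and 67.8 for those of asynchronous cells.

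Of the regions called only in mitosis, that with the highest such percentile, at 2860154 to 2860462, had 23 and 33 fragments. It was followed by 771391 to 772081, with 20 and 28, and 3614212 to 3615225, with 25 and 36. On the asynchronous side the first, at 2085241 to 2085747, had 30 and 39 fragments. Next came 3843647 to 3843928, with 47 and 37, and 1441930 to 1442579, with 17 and 16. Requiring a -log10 q of at least 5 reduced the numbers to 3 for asynchronous and 11 for mitotic cells.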

How the data were processed

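Per the submitters' processing notes, the tools were MACS2, Bowtie2, fastp and bedtools, on genome build hs1. The sources used here do not give versions, parameters, any control library or duplicate removal. Each library came with its own deposited narrowPeak list. Its fold, as deposited by the authors, is the ratio of pileup at the summit to what was expected locally, and the authors' -log10 p and -log10 q are the peak caller's values, with every -log10 q above 1. The deposited score was about 10 times the -log10 q and went unused. The deposited summit offset gave each summit. Positions are 1-based.

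Pileup and local background were solved for each peak from fold = (pileup + 1) / (background + 1) and the Poisson p-value. Pileups under 200 all came out whole within 0.05. Relative depth was read from the smallest background in each list, called the genome background: 1.38 and 1.17 fragments for asynchronous, 1.17 and 1.79 for mitotic replicates 3 and 4. Lists held 76460 to 114838 nuclear peaks. Library totals and the spike-in of 1 pg listed for every library were not used here.

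Bins and shared regions were fitted over 24 nuclear chromosomes with limma 3.58.1 (trended prior, Benjamini-Hochberg threshold 0.05). The fit was also run on simulated data, but the share of differences that it recovered is not reported here. Bins needed a peak in at least 2 libraries. Heights were scaled to the library's median over shared regions. Per-library values went into exact permutation tests (two-sided). Regions named were the 12 highest, the 3 of smallest p in each direction and the 3 strongest of each state alone. Bins named were the 5 with most and fewest summits and the 3 of smallest p in each direction. The interval, sections and lists were chosen with earlier results of these data known. Genes were to be placed only with an hs1 annotation, which was not used here, and no sequence is shown for the same reason. The steps of 10 kb, window ranks and fold percentiles were added after seeing the data.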

Additional observations from a re-analysis of the deposited data

How the results depend on the processing

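Calls in the interval were 0 under every alternative run, for the 37 bins and for the shared regions. All 12 bins and regions named for a small p kept their direction in all 120 alternative values. They had been picked for a small p in these same libraries. Without a trend in the prior, with the replicate block or without the filter on bins, the estimate is the same, so its direction could not change. Some regions had no value at the stricter threshold or with a reciprocal overlap of 50%. None passed in the alternatives that kept all 4 libraries. Over all chromosomes the 12 calls for summit height became 0 with heights scaled to the genome background, 0 without a trend in the prior, 3 at the stricter threshold (-log10 q of at least 5), 31 with a common smallest peak width and 6 with a reciprocal overlap of 50%. Leaving out 1 library gave 1 (without mitotic replicate 3) to 12. The density of the interval against the reference was 4.35 at the stricter threshold and 3.79 by covered bases, in place of 3.43. That of 3 to 4 Mb against the rest of the interval was 3.16 and 2.21, in place of 1.70. Asynchronous-only regions fell from 26 to 3 and mitotic-only regions from 39 to 11 at the stricter threshold. Without 1 library they ranged from 33 to 194 and from 58 to 251, since fewer lists then had to hold or lack the region. The interval's median height difference of -0.129 became 0.00215 at the stricter threshold. The share difference kept its sign throughout. At the stricter threshold it went from -0.0346 to -0.0828 percentage points (exact permutation p = 0.667 and 0.333). The share of high-background peaks lying between 3 and 4 Mb moved from 29.4% to 15.2% at 10 times and 46.0% at 20 times the genome background (chosen after seeing the data).

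The replicate number as a block gave 14 calls over all chromosomes for summit height, 0 in the interval and 0 for bins, and left the share difference at -0.0346 percentage points. Same-numbered libraries did not deviate together (r = -0.0493 over shared regions and 0.00019 over bins). That cannot show whether they had a common preparation, which these sources do not give. Median pileups of 20 to 26 fragments limit the precision of single regions.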
